A study of Mus musculus with 48 samples.

Results

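Genes of conjugating enzymes and of enzymes that oxidize or reduce aldehydes were followed in lung RNA of 48 C57BL/6 mice, all male, with 1 Affymetrix microarray for each animal. Genes were taken by symbol. Glutathione transferases were Gst genes (Gst followed by a, k, m, o, p, t or z) and microsomal Mgst genes. The others were UDP-glucuronosyltransferases (Ugt1 and Ugt2), sulfotransferases (Sult), aldehyde dehydrogenases (Aldh, without Aldh3a1) and aldo-keto reductases of family 1 (Akr1). This gave 67 of the 12393 genes with an annotated symbol of their own. They comprised 21 glutathione transferases, of which 18 were Gst genes, 6 UDP-glucuronosyltransferases, 11 sulfotransferases, 16 aldehyde dehydrogenases and 13 aldo-keto reductases. For the 20 genes with several probe sets, the brightest on average was used. Values are log2 signals made by RMA, so that a difference of 1 is a doubling of the signal. They tell how a gene differed between animals. Bright and dim are said of a probe set's signal, which served to choose the genes described in each family, and tell nothing of how much RNA one gene gives relative to another.

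The animals formed 6 groups of 8. Diet-induced obese (DIO) animals ate pellets with 60 kcal% fat from 6 weeks of age, 9 weeks before the exposures, and regular weight (RW) animals ate standard pellets with about 5 kcal% fat. At 15 weeks of age the animals began to breathe mainstream smoke (MS, what a smoker draws), sidestream smoke (SS, what rises from the burning tip) or filtered air (SC, the sham control) through the nose only. They were exposed for 5 h a day on 8 days over 2 weeks, and the lungs were taken 1 day after the last exposure. The groups are called DIO-MS, DIO-SS, DIO-SC, RW-MS, RW-SS and RW-SC below, and an array by its group and animal number. The labels also mention an LPS exposure study when they describe the diets, and whether any of these animals received LPS is not stated there. All animals were purchased males of this inbred strain, and the diet groups differ in the kind of pellet as well as in weight.

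These enzymes act on foreign and endogenous chemicals, reactive or not. Glutathione transferases join a chemical to glutathione, UDP-glucuronosyltransferases to glucuronic acid and sulfotransferases to sulfate, which makes it easier to export. Aldehyde dehydrogenases oxidize aldehydes to acids, and aldo-keto reductases reduce aldehydes and ketones to alcohols. Cigarette smoke carries reactive aldehydes such as acrolein, and in the lung many of these enzymes are known to be high in club cells and other epithelium of the airway. The transcription factor NRF2, encoded by Nfe2l2, and the aryl hydrocarbon receptor are known activators of several of them.

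Differences were tested with limma over all genes and arrays, and a gene is said to have risen or fallen where its Benjamini-Hochberg adjusted p, two-sided and over the 12393 genes, was below 0.05. Errors given with a difference are standard errors (SE), group sizes are 8 throughout, and 3 signals in a row for a group are its lowest, median and highest animal. The array medians lay between 7.82 and 7.94. Arrays DIO-SC-3, DIO-SC-7, RW-SS-6, DIO-MS-1 and DIO-MS-6 stood apart, with a mean correlation with the other arrays between 0.954 and 0.979, against at least 0.986 in the other 43. DIO-SC-7 and RW-SS-6 were high in adipocyte markers, with mean log2 signals of 10.96 and 11.17. DIO-SC-7 was also high in T cell markers, at 10.97 against a group median of 7.23, and in thymocyte markers, at 10.51 against 5.84. RW-SS-6 had the highest cardiac muscle signal of its group, at 11.88 against a median of 9.13, and DIO-SC-3 was high in skeletal muscle markers, at 11.9, and in squamous epithelium markers, at 12.25. DIO-MS-1 was lowest of its group in smooth muscle (9.29, median 10.05) and cardiac muscle markers (7.55, median 10.07). It was highest in T cell markers (8.77, median 7.28), and DIO-MS-6 was highest in neutrophil markers (9.02, median 8.29). For the enzyme genes, results that depend on these 5 arrays are given with and without them. Genes outside these families that are named below, and cell type markers, are given with all arrays only. In whole lung, fewer cells of a type and less RNA per cell cannot be told apart.

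Mainstream smoke changed 17 of the 67 genes in obese animals, 4 higher and 13 lower, where 21.4% of all genes were called, 11.7% higher and 9.76% lower. In regular weight animals it changed 13, 5 higher and 8 lower, where 14.7% of all genes were called, 6.61% higher and 8.07% lower. The shares of the 67 were 25.4% in obese and 19.4% in regular weight animals, close to those of all genes, so that the total count sets the enzymes little apart. The direction was less even. Among the 67 genes 19.4% fell in DIO-MS and 11.9% in RW-MS, against 9.76% and 8.07% of all genes. The 18 Gst genes held most of the falls, with 1 higher and 8 lower in DIO-MS and 1 higher and 6 lower in RW-MS. Their median log2 difference was -0.26 in DIO-MS and -0.11 in RW-MS, where the medians of all genes were -0.02 and -0.03. Of the 13 aldo-keto reductases 2 rose in DIO-MS (15.4%, near the 11.7% of all genes) and 3 in RW-MS (23.1%, against 6.61%). None of the 13 fell, and these counts are too small to give the class a direction.

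Sidestream smoke changed fewer. In obese animals 7 rose and 2 fell, where 6.85% of all genes were called, 4.26% higher and 2.59% lower. In regular weight animals 2 rose and 1 fell, where 2.17% of all genes were called, 0.694% higher and 1.48% lower. Obese animals in air differed from regular weight animals in air in 3 of the 67 genes, with none higher and 3 lower, where 8.28% of all genes were called, 2.29% higher and 5.99% lower. All 8 animals of a smoke group lay beyond all 8 air animals in 3 of the 67 genes in DIO-MS, where 3.61% of all genes did so, in 9 in RW-MS (4.78% of all genes), in 1 in DIO-SS (1.42%) and in 2 in RW-SS (0.742%). In all, 30 of the 67 were called in at least 1 of the 9 comparisons and 37 in none. Mainstream and sidestream groups of a diet were compared with the same air group, so that their differences share its errors. The map of log2 differences shows every gene in every comparison.

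**Figure D1:**
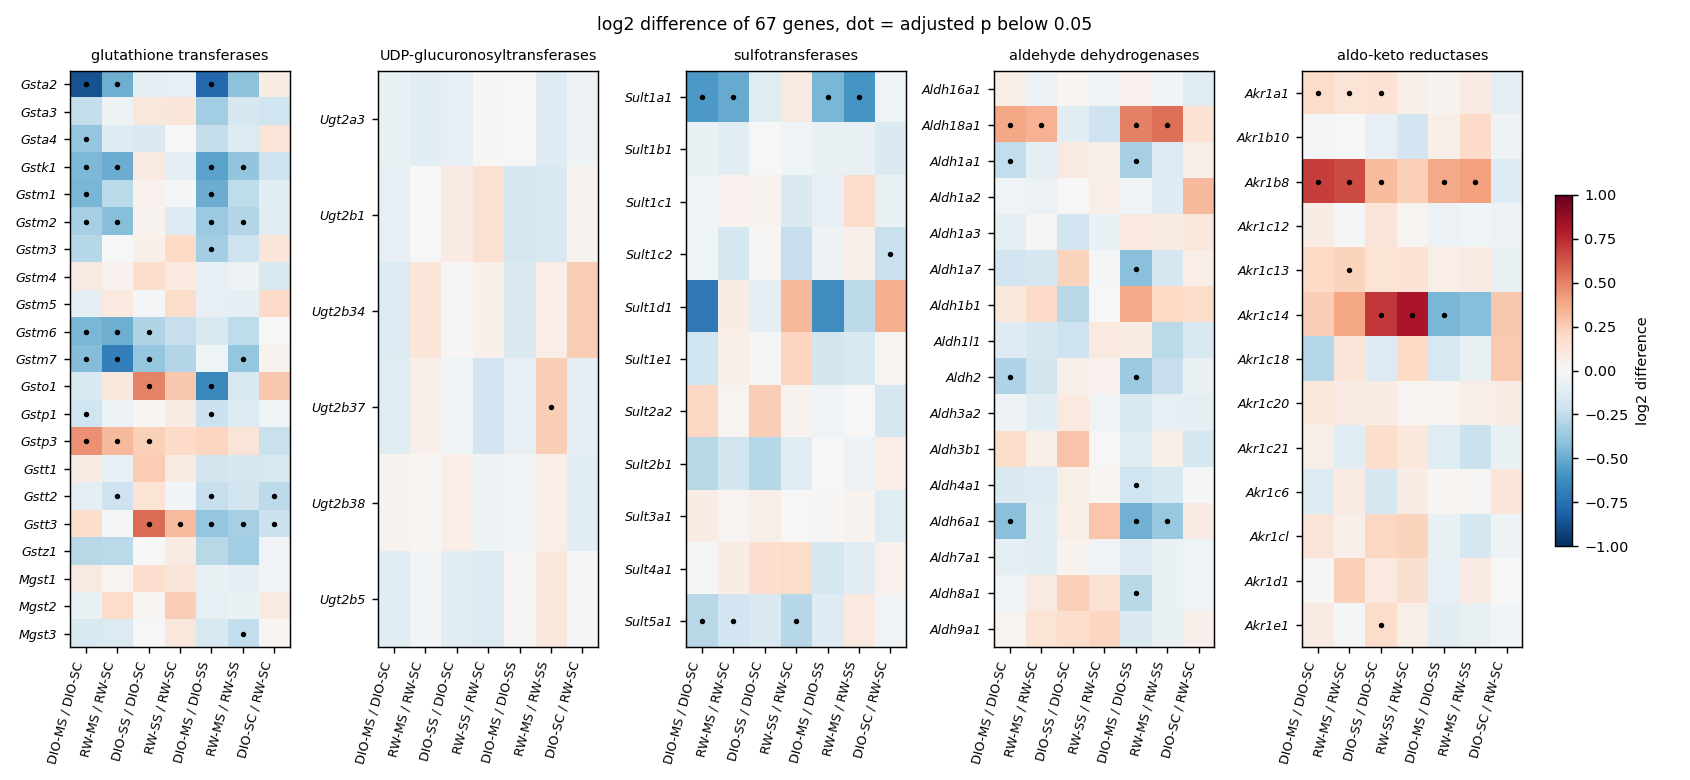
Log2 differences of the 67 genes (down each panel, by enzyme class) in 7 comparisons (across, the first group of each label minus the second), with red higher, blue lower and a dot where the adjusted p was below 0.05. Blue dots gather among the glutathione transferases in the mainstream columns. The aldo-keto reductases hold few dots, mostly red, with Akr1b8 highest under mainstream and Akr1c14 under sidestream smoke.

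Akr1b8, an aldose reductase-like enzyme that reduces aldehydes, had the largest rise with mainstream smoke. Akr1b8 signals (lowest, median, highest) were 9.67, 9.86 and 10.49 in DIO-MS, 9.40, 9.59 and 9.88 in DIO-SS and 8.83, 9.36 and 9.50 in DIO-SC. In regular weight animals they were 9.81, 10.03 and 10.40 in RW-MS, 9.59, 9.63 and 9.75 in RW-SS and 9.13, 9.37 and 9.67 in RW-SC. In both diets all 8 mainstream animals lay above all 8 air animals, and the sidestream medians lay between, with ranges that overlapped those of air. The log2 difference was 0.69 ± 0.10 (SE) in obese animals, 1.62-fold, with an adjusted p of 3.8e-07 by limma, and 0.65 ± 0.10 in regular weight animals, 1.57-fold, with 3.1e-06. Without the 5 arrays that stood apart the obese value was 0.43, with an adjusted p of 0.00013. Under sidestream smoke Akr1b8 was higher by 0.32 ± 0.10 in obese animals (adjusted p = 0.04) and by 0.24 ± 0.10 in regular weight animals (adjusted p = 0.2), and the obese call ended without the 5 arrays, at 0.21 and an adjusted p of 0.088. It was higher with mainstream than with sidestream smoke in both diets, by 0.38 ± 0.10 in obese animals (adjusted p = 0.0049; 0.23 and 0.051 without the 5 arrays) and by 0.41 ± 0.10 in regular weight animals (adjusted p = 0.0037). Its neighbour on chromosome 6, Akr1b10, another aldose reductase-like gene, was dim, between 4.89 and 6.54 over the 48 arrays. Akr1b10 differed by -0.02 in DIO-MS and 0.00 in RW-MS.

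The stretches just upstream of these neighbours are shown because one moved with smoke and the other did not pass the test. They are the 250 bases before an annotated start on the plus strand in the RefSeq annotation of GRCm38.p6, chr6:34353896-34354145 for Akr1b8 and chr6:34383997-34384246 for Akr1b10. Capitals mark matches to 4 short motifs searched on both strands, and the letters and their frequency are given further on.
Akr1b8: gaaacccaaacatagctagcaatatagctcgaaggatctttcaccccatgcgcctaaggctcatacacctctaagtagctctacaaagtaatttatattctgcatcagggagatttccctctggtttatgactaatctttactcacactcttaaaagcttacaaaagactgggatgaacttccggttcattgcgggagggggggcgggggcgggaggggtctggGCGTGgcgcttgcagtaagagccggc
Akr1b10: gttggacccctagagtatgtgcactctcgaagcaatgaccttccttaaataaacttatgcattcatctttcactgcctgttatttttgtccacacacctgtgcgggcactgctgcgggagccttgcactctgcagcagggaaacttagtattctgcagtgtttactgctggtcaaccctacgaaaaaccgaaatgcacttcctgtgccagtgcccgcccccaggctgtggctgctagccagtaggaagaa
The Akr1b8 window holds 1 match, GCGTG from -26 to -22 relative to the start, and the Akr1b10 window holds none.

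Akr1a1, aldehyde reductase, a broad reductase of aldehydes that in mice also serves vitamin C synthesis, was the brightest of the Akr1a and Akr1b genes and rose by little but evenly. Akr1a1 signals were 13.48, 13.55 and 13.63 in DIO-MS, 13.46, 13.52 and 13.57 in DIO-SS and 13.16, 13.40 and 13.53 in DIO-SC. They were 13.55, 13.62 and 13.66 in RW-MS, 13.46, 13.52 and 13.62 in RW-SS and 13.39, 13.48 and 13.52 in RW-SC. Every RW-MS animal lay above every RW-SC animal, while the obese groups overlapped. The differences were 0.18 ± 0.04 in DIO-MS (adjusted p = 0.00038) and 0.14 ± 0.04 in RW-MS (adjusted p = 0.011). Over the mean of its 4 probe sets the RW-MS difference was 0.11, with an adjusted p of 0.057, and with only DIO-MS and DIO-SC in the fit the adjusted p in obese animals was 0.054. In DIO-SS the difference was 0.14 ± 0.04 (adjusted p = 0.015), and without the 5 arrays it was 0.08, with an adjusted p of 0.12. Akr1c13, a member of the steroid-reducing Akr1c cluster, rose in RW-MS by 0.22 ± 0.08, with an adjusted p of 0.049 that 32 of the 48 single arrays could end when left out. A probe set that carries the symbols of both Akr1c12 and Akr1c13 was higher by 0.28 ± 0.08 in DIO-MS and 0.25 ± 0.08 in RW-MS, with adjusted p values of 0.011 and 0.032 over all probe sets. These genes and others named below for a call under 1.5-fold, unless brightest of their family, were picked after their values were seen.

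Of the pi class, Gstp3 rose with mainstream smoke and Gstp1 did not. Both are pi-class glutathione transferases, the class that conjugates acrolein and related aldehydes, and they lie close together on chromosome 19 with Gstp2 between them. Gstp3 had signals of 7.02, 7.19 and 7.58 in DIO-MS, 6.80, 7.05 and 7.19 in DIO-SS and 6.57, 6.78 and 7.09 in DIO-SC. They were 7.12, 7.31 and 7.54 in RW-MS, 6.96, 7.23 and 7.36 in RW-SS and 6.88, 6.98 and 7.25 in RW-SC. In each diet 7 of 8 mainstream animals lay above all air animals. Gstp3 rose by 0.45 ± 0.08 in DIO-MS (adjusted p = 1.6e-05) and by 0.33 ± 0.08 in RW-MS (adjusted p = 0.0028). In DIO-SS it was higher by 0.24 ± 0.08, with an adjusted p just under 0.05 that was lost under 5 of the 8 alternatives, and in RW-SS by 0.19 ± 0.08 (adjusted p = 0.19).

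Gstp1 had signals of 12.44, 12.75 and 12.88 in DIO-MS, 12.88, 12.95 and 12.98 in DIO-SS and 12.62, 12.94 and 13.13 in DIO-SC. In regular weight animals they were 12.76, 12.92 and 12.97 in RW-MS, 12.96, 13.04 and 13.14 in RW-SS and 12.84, 12.99 and 13.04 in RW-SC. The mainstream groups lay low within ranges that overlapped those of air. Gstp1 fell by 0.20 on the log2 scale in DIO-MS (SE 0.05, adjusted p = 0.0046; 0.12 with only DIO-MS and DIO-SC in the fit) and differed by -0.06 ± 0.05 in RW-MS (adjusted p = 0.49). Against sidestream smoke it was lower in DIO-MS by 0.21 ± 0.05 (adjusted p = 0.003). The mouse genome holds near-identical copies of Gstp1, and whether its probe set reads them as well was not tested. The 250 bases before 1 annotated start of each gene are shown because the pair moved in opposite directions in DIO-MS. They lie on the minus strand at chr19:4059448-4059697 for Gstp3 and chr19:4037913-4038162 for Gstp1, are written 5′ to 3′ as the gene reads, and capitals mark motif matches.
Gstp3: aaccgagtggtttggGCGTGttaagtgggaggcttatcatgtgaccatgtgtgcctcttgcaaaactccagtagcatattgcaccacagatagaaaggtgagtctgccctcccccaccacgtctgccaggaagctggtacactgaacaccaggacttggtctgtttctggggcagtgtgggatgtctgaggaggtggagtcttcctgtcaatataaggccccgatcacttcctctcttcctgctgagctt
Gstp1: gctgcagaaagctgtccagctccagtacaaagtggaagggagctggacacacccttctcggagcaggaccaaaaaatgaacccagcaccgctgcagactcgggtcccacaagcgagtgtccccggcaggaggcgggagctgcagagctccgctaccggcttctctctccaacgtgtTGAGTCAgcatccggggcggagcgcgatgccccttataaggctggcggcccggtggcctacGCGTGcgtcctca
The gene-side part of the Gstp3 window lies within that gene's full annotated span, which begins further upstream, at 4059605. The Gstp3 window holds GCGTG from -235 to -231. The Gstp1 window holds TGAGTCA from -74 to -68 and GCGTG from -13 to -9.

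Aldh18a1, which belongs to the aldehyde dehydrogenases by sequence and makes the precursor of proline, was the only one of the 16 to rise with mainstream smoke. Aldh18a1 signals were 8.17, 8.29 and 8.92 in DIO-MS, 7.78, 7.98 and 8.07 in DIO-SS and 7.68, 8.01 and 8.75 in DIO-SC. They were 8.13, 8.27 and 8.42 in RW-MS, 7.46, 7.76 and 7.85 in RW-SS and 7.65, 7.93 and 8.12 in RW-SC. All RW-MS animals lay above all RW-SC animals, and in both diets all mainstream animals lay above all sidestream animals. The rises over air were 0.38 ± 0.10 in DIO-MS (adjusted p = 0.0037) and 0.34 ± 0.10 in RW-MS (adjusted p = 0.014), and over sidestream smoke 0.50 ± 0.10 (adjusted p = 0.00023) in obese and 0.55 ± 0.10 (adjusted p = 8.2e-05) in regular weight animals. The probe set used can match other transcripts. With such probe sets left out, another probe set of Aldh18a1 gave 0.15 in RW-MS, with an adjusted p of 0.29. With only DIO-MS and DIO-SC in the fit, the adjusted p in obese animals was 0.1.

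**Figure D2:**
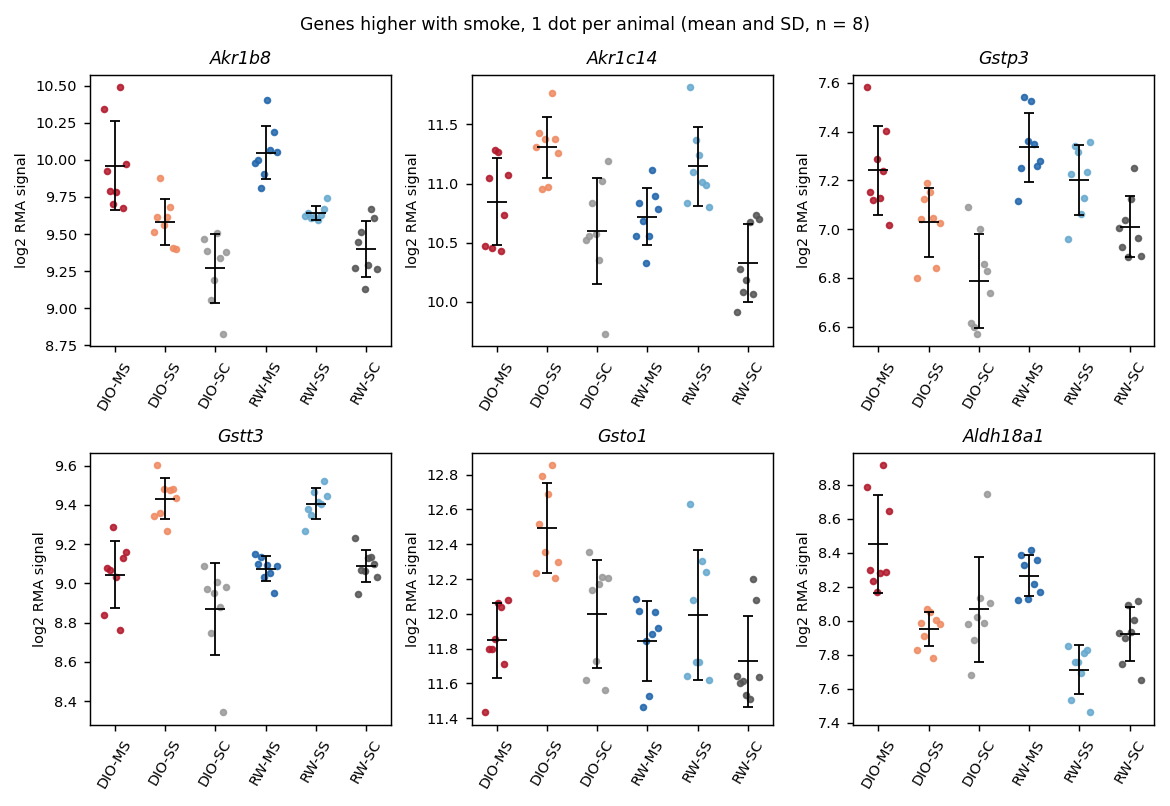
Log2 RMA signal (vertical axis) of Akr1b8, Akr1c14, Gstp3, Gstt3, Gsto1 and Aldh18a1 in each animal (dots), by group (horizontal axis), with the mean and SD of 8 animals in black. Akr1b8 and Aldh18a1 are highest in the mainstream groups, and Akr1c14 and Gstt3 in the sidestream groups.

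Gsta2, an alpha-class glutathione transferase that also reduces lipid hydroperoxides, had the largest fall. Gsta2 signals were 6.70, 7.95 and 8.24 in DIO-MS, 8.39, 8.50 and 8.66 in DIO-SS and 7.62, 8.59 and 9.50 in DIO-SC. They were 7.82, 8.04 and 8.23 in RW-MS, 8.24, 8.42 and 8.70 in RW-SS and 8.15, 8.52 and 8.98 in RW-SC. The mainstream groups overlapped air at their edges, and the lowest values came from DIO-MS-6 and DIO-MS-1, 2 of the arrays that stood apart. Gsta2 fell by 0.87 on the log2 scale in DIO-MS, with an SE of 0.17 and an adjusted p of 0.00013. The fall in RW-MS was 0.49 ± 0.17, with an adjusted p of 0.045 that became 0.057 with the arrays centred on their medians and that 12 single arrays could end when left out. Without the 5 arrays the falls were 0.57 (adjusted p = 1.2e-05) in DIO-MS and 0.49 (adjusted p = 1.4e-05) in RW-MS, so that the larger obese value rested on those arrays and the calls did not. A probe set shared by Gsta1, Gsta2 and Gm3776 was lower by 0.87 ± 0.19 in DIO-MS (adjusted p = 0.00063 over all probe sets) and 0.53 ± 0.19 in RW-MS (adjusted p = 0.054), and the signal of such near-identical copies cannot be assigned to 1 of them. For this gene with the largest fall, the 250 bases before 1 annotated start are chr9:78347146-78347395 on the minus strand in GRCm38.p6. The annotated span of the gene reaches to 78347192, so that the end of the window nearest this start lies within it. That end holds GCGTG from -7 to -3, in capitals.
Gsta2: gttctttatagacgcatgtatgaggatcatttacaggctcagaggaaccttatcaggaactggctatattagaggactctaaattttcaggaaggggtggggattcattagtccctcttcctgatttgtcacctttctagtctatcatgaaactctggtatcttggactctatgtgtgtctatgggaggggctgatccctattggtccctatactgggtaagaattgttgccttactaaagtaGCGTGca

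The other alpha-class genes did less. Gsta3, the brightest of the class, had signals of 10.82, 11.71 and 11.82 in DIO-MS, 10.92, 11.83 and 12.34 in DIO-SC, 11.73, 11.87 and 12.10 in RW-MS and 11.71, 11.93 and 12.21 in RW-SC. These ranges overlapped, and the differences were -0.23 ± 0.14 in DIO-MS (adjusted p = 0.23) and -0.05 ± 0.14 in RW-MS (adjusted p = 0.85). Gsta4, the transferase best known for conjugating the lipid aldehyde 4-hydroxynonenal, fell by 0.39 ± 0.12 in DIO-MS with an adjusted p of 0.019. Without the 5 arrays its value was -0.19 and the adjusted p 0.065, and leaving out DIO-SC-3, DIO-MS-1 or DIO-MS-6 alone also ended the call. Gsta4 differed by -0.13 ± 0.12 in RW-MS (adjusted p = 0.54).

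The mu class was measured through 7 genes, which lie side by side on chromosome 3 in the order Gstm5, Gstm7, Gstm6, Gstm3, Gstm2, Gstm1 and Gstm4. Mainstream smoke lowered 4 of them in obese animals (Gstm1, Gstm2, Gstm6 and Gstm7), where 9.76% of all genes fell, and 3 in regular weight animals (Gstm2, Gstm6 and Gstm7), where 8.07% fell. The median differences of the 7 were -0.33 in DIO-MS and -0.27 in RW-MS. Gstm4 and Gstm5, at the ends of the row, were called in no comparison. Mu-class enzymes conjugate epoxides and other electrophiles formed from polycyclic aromatic hydrocarbons.

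Gstm7 fell most in regular weight animals. Gstm7 signals were 5.50, 5.89 and 6.04 in DIO-MS, 5.69, 5.86 and 6.21 in DIO-SS and 6.07, 6.28 and 6.37 in DIO-SC. They were 5.18, 5.57 and 5.82 in RW-MS, 5.54, 5.77 and 6.63 in RW-SS and 5.89, 6.31 and 6.63 in RW-SC. In each diet every mainstream animal lay below every air animal. The fall was 0.68 ± 0.11 in RW-MS, 1.60-fold, with an adjusted p of 2.1e-05, and 0.43 ± 0.11 in DIO-MS, with an adjusted p of 0.0037. Under sidestream smoke Gstm7 fell by 0.39 ± 0.11 in obese animals (adjusted p = 0.026), a call that ended without DIO-SS-8, and differed by -0.29 ± 0.11 in regular weight animals (adjusted p = 0.17). A second probe set of Gstm7 differed by 0.04 ± 0.12 in DIO-MS and -0.03 ± 0.12 in RW-MS. Over the mean of both probe sets the value was -0.35 in RW-MS (adjusted p = 0.0047), -0.20 in DIO-MS (adjusted p = 0.11) and -0.10 in DIO-SS (adjusted p = 0.53). The size of the falls in both diets, and the calls in DIO-MS and DIO-SS, thus rest on 1 of the 2 probe sets.

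Gstm1, the brightest of the mu class, had signals of 11.29, 12.24 and 12.40 in DIO-MS, 12.45, 12.54 and 12.61 in DIO-SS and 12.00, 12.60 and 12.68 in DIO-SC. They were 12.08, 12.36 and 12.48 in RW-MS, 12.50, 12.60 and 12.70 in RW-SS and 12.48, 12.62 and 12.75 in RW-SC. In both diets all mainstream animals lay below all sidestream animals, and in regular weight animals also below all air animals. Gstm1 fell by 0.46 ± 0.10 in DIO-MS, with an adjusted p of 0.00074 that became 0.086 with only DIO-MS and DIO-SC in the fit. In RW-MS it differed by -0.27 ± 0.10, with an adjusted p of 0.067, and without the 5 arrays, none of them in RW-MS or RW-SC, the same difference had an adjusted p of 5.8e-06. These arrays widened the spread that all groups share in the test. The Gstm1 probe set used can match other transcripts. With such probe sets left out, its DIO-MS call held.

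Gstm2 had signals of 10.54, 11.03 and 11.13 in DIO-MS, 11.18, 11.32 and 11.40 in DIO-SS and 10.39, 11.38 and 11.47 in DIO-SC. They were 10.76, 10.98 and 11.03 in RW-MS, 11.16, 11.25 and 11.34 in RW-SS and 11.26, 11.35 and 11.55 in RW-SC. All mainstream animals lay below all sidestream animals of their diet, and all RW-MS animals below all RW-SC animals. Gstm2 fell by 0.33 ± 0.09 in DIO-MS (adjusted p = 0.0065; 0.16 with only these groups in the fit) and by 0.42 ± 0.09 in RW-MS (adjusted p = 0.0011). Gstm6 fell by 0.46 ± 0.10 in DIO-MS (adjusted p = 0.00041) and by 0.49 ± 0.10 in RW-MS (adjusted p = 0.0004).

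Gstk1, the kappa-class transferase of mitochondria and peroxisomes, fell with mainstream smoke in both diets. Gstk1 signals were 10.00, 10.61 and 10.73 in DIO-MS, 10.91, 11.04 and 11.11 in DIO-SS and 10.56, 10.96 and 11.19 in DIO-SC. They were 10.33, 10.67 and 10.84 in RW-MS, 10.94, 11.03 and 11.17 in RW-SS and 11.04, 11.13 and 11.25 in RW-SC. Mainstream animals lay wholly below sidestream animals in both diets and wholly below air animals in regular weight animals. Gstk1 fell by 0.45 ± 0.08 in DIO-MS (adjusted p = 6.5e-05) and by 0.49 ± 0.08 in RW-MS (adjusted p = 2.9e-05). Relative to sidestream smoke it was lower by 0.54 ± 0.08 in DIO-MS (adjusted p = 3.7e-06) and by 0.39 ± 0.08 in RW-MS (adjusted p = 0.00089). These calls held under the 8 alternatives and with any single array left out.

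**Figure D3:**
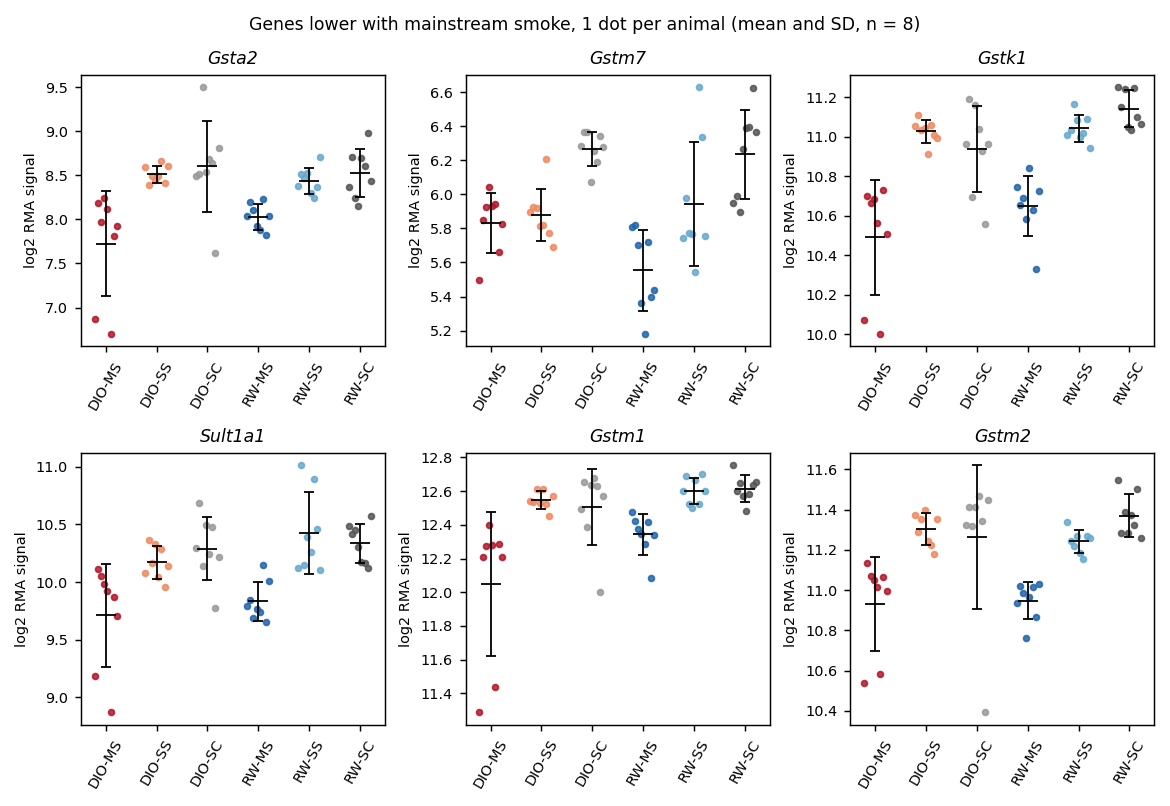
Log2 RMA signal (vertical axis) of Gsta2, Gstm7, Gstk1, Sult1a1, Gstm1 and Gstm2 in each animal (dots), by group (horizontal axis), with the mean and SD of 8 animals in black. Mainstream groups lie below their air groups in all 6 panels, and the Gsta2, Sult1a1 and Gstm1 panels show single low DIO-MS animals.

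Sult1a1, the main sulfotransferase for phenols, fell with mainstream smoke. Sult1a1 signals were 8.87, 9.90 and 10.11 in DIO-MS, 9.96, 10.15 and 10.36 in DIO-SS and 9.78, 10.27 and 10.69 in DIO-SC. They were 9.66, 9.78 and 10.15 in RW-MS, 10.11, 10.33 and 11.01 in RW-SS and 10.12, 10.36 and 10.57 in RW-SC. In regular weight animals 7 of 8 mainstream animals lay below all air animals. The fall was 0.58 ± 0.14 in DIO-MS (adjusted p = 0.0015) and 0.50 ± 0.14 in RW-MS (adjusted p = 0.0089). Relative to sidestream smoke it was 0.59 ± 0.14 in regular weight animals, 1.51-fold, with an adjusted p of 0.0025. In obese animals that difference was 0.46 ± 0.14 (adjusted p = 0.015), and the call ended without DIO-MS-1 or without DIO-MS-6, and without all 5 arrays, at -0.23 and an adjusted p of 0.15.

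Sult5a1, the brightest of the sulfotransferases outside the Sult1 family, was lower with both smokes. Sult5a1 signals were 7.06, 7.39 and 7.51 in DIO-MS, 7.27, 7.53 and 7.60 in DIO-SS and 7.51, 7.62 and 7.76 in DIO-SC. They were 7.35, 7.46 and 7.67 in RW-MS, 7.24, 7.36 and 7.62 in RW-SS and 7.53, 7.67 and 7.79 in RW-SC. The DIO-MS animals all lay below the DIO-SC animals, and the other smoke groups overlapped air. It fell by 0.28 ± 0.06 in DIO-MS (adjusted p = 0.00059), by 0.19 ± 0.06 in RW-MS (adjusted p = 0.025, a call that ended without RW-SC-7, RW-MS-6 or RW-MS-7) and by 0.29 ± 0.06 in RW-SS (adjusted p = 0.0042). In DIO-SS it differed by -0.15 ± 0.06 (adjusted p = 0.14). Sult1d1, a sulfotransferase of catecholamines, had the widest spread of the 67, with an SE of 0.33, and its difference of -0.72 in DIO-MS had an adjusted p of 0.11.

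Among the aldehyde dehydrogenases, 3 of 16 fell in DIO-MS and 0 of 16 in RW-MS, where 9.76% and 8.07% of all genes fell. Aldh1a1, which makes retinoic acid from retinal, was the brightest of the Aldh1 family, and its signals were 13.30, 13.87 and 13.96 in DIO-MS, 14.01, 14.09 and 14.19 in DIO-SS and 13.53, 14.08 and 14.19 in DIO-SC. They were 13.71, 13.87 and 14.03 in RW-MS, 13.88, 13.99 and 14.17 in RW-SS and 13.88, 13.93 and 14.04 in RW-SC. Every DIO-MS animal lay below every DIO-SS animal. Aldh1a1 fell by 0.25 ± 0.08 in DIO-MS (adjusted p = 0.015), a call that ended without DIO-MS-1 or DIO-MS-6 and with only these groups in the fit (adjusted p = 0.2). Without all 5 arrays the difference was -0.23, with an adjusted p of 0.00082.

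Aldh2, the mitochondrial enzyme that clears acetaldehyde, had signals of 11.70, 12.30 and 12.52 in DIO-MS, 12.49, 12.56 and 12.70 in DIO-SS and 12.00, 12.64 and 12.69 in DIO-SC. They were 12.29, 12.42 and 12.48 in RW-MS, 12.56, 12.60 and 12.84 in RW-SS and 12.53, 12.56 and 12.70 in RW-SC. All RW-MS animals lay below all RW-SC animals. Aldh2 fell by 0.31 ± 0.08 in DIO-MS (adjusted p = 0.0054; 0.15 with only these groups in the fit), and it differed by -0.18 ± 0.08 in RW-MS (adjusted p = 0.14; 0.00073 without the 5 arrays). Aldh6a1, which acts in the breakdown of valine, fell by 0.42 ± 0.12 in DIO-MS (adjusted p = 0.0082), but without the 5 arrays it differed by -0.12 (adjusted p = 0.32). None of the 16 was called under sidestream smoke against air. Of all genes 6.85% were called in DIO-SS and 2.17% in RW-SS, so that none of 16 sets the class little apart.

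Akr1c14, a steroid 3-alpha dehydrogenase, had the largest rise with sidestream smoke. Akr1c14 signals were 10.43, 10.89 and 11.29 in DIO-MS, 10.96, 11.34 and 11.77 in DIO-SS and 9.73, 10.56 and 11.19 in DIO-SC. They were 10.33, 10.73 and 11.11 in RW-MS, 10.81, 11.06 and 11.82 in RW-SS and 9.91, 10.23 and 10.74 in RW-SC. All RW-SS animals lay above all RW-SC animals, and 6 of 8 DIO-SS animals above all DIO-SC animals. Akr1c14 rose by 0.71 ± 0.16 in DIO-SS, 1.64-fold (adjusted p = 0.0042), and by 0.82 ± 0.16 in RW-SS, 1.76-fold (adjusted p = 0.0025). Under mainstream smoke it was higher by 0.25 ± 0.16 in obese animals (adjusted p = 0.3) and by 0.39 ± 0.16 in regular weight animals (adjusted p = 0.1; 0.046 without the 5 arrays). The mainstream and sidestream values differed by -0.46 ± 0.16 in obese animals (adjusted p = 0.045) and by -0.43 ± 0.16 in regular weight animals (adjusted p = 0.089). Without the 5 arrays the call moved to the other diet, with -0.33 (adjusted p = 0.19) in obese and -0.44 (adjusted p = 0.035) in regular weight animals. The 250 bases before 1 annotated start of Akr1c14, chr13:4059341-4059590 on the plus strand in GRCm38.p6, are shown beside those of the genes that rose with mainstream smoke. This start lies inside the full annotated span of the gene, 4048991 to 4090560, so that the window is not upstream of the whole gene. It holds no match to the 4 motifs.
Akr1c14: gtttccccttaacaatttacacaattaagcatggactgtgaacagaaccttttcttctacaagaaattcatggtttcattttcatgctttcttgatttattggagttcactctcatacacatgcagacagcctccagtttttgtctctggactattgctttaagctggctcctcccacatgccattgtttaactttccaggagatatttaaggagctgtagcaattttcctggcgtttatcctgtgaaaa
Of the 7 other Akr1c genes, none was called under sidestream smoke against air, where 6.85% of all genes were called in DIO-SS and 2.17% in RW-SS. Akr1e1, which reduces 1,5-anhydrofructose, lies in the same cluster on chromosome 13. It rose by 0.19 ± 0.06 in DIO-SS (adjusted p = 0.029), and without the 5 arrays its value was 0.16, with an adjusted p of 0.093.

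Gstt3, a theta-class glutathione transferase, rose with sidestream smoke in both diets. Gstt3 signals were 8.76, 9.07 and 9.29 in DIO-MS, 9.27, 9.46 and 9.60 in DIO-SS and 8.34, 8.96 and 9.09 in DIO-SC. They were 8.95, 9.09 and 9.15 in RW-MS, 9.27, 9.41 and 9.52 in RW-SS and 8.95, 9.09 and 9.23 in RW-SC. All sidestream animals lay above all air animals of their diet. The rise was 0.56 ± 0.07 in DIO-SS (adjusted p = 2.3e-07) and 0.32 ± 0.07 in RW-SS (adjusted p = 0.0052). The values under mainstream smoke were lower than under sidestream smoke by 0.39 ± 0.07 in obese animals (adjusted p = 4.3e-05) and by 0.33 ± 0.07 in regular weight animals (adjusted p = 0.00069). Gstt3, Gstt1 and Gstt2 lie close together on chromosome 10. Gstt1, the brightest of them, which activates or clears small halogenated compounds, differed by 0.25 ± 0.08 in DIO-SS (adjusted p = 0.052) and 0.09 ± 0.08 in RW-SS (adjusted p = 0.64). Gstt1 signals were 11.36, 11.42 and 11.48 in DIO-SS, 10.48, 11.29 and 11.44 in DIO-SC, 11.27, 11.38 and 11.61 in RW-SS and 11.21, 11.31 and 11.47 in RW-SC, with overlap in both diets.

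Gsto1, an omega-class transferase that reduces disulfides and dehydroascorbate, had signals of 11.43, 11.83 and 12.08 in DIO-MS, 12.20, 12.44 and 12.85 in DIO-SS and 11.56, 12.16 and 12.36 in DIO-SC. They were 11.46, 11.90 and 12.08 in RW-MS, 11.62, 11.90 and 12.63 in RW-SS and 11.51, 11.63 and 12.20 in RW-SC. All DIO-MS animals lay below all DIO-SS animals, while the regular weight groups overlapped. Gsto1 rose by 0.49 ± 0.14 in DIO-SS (adjusted p = 0.018), a call that ended without DIO-SS-6 (adjusted p = 0.051) and with only DIO-SS and DIO-SC in the fit (adjusted p = 0.052). In RW-SS it was higher by 0.27 ± 0.14 (adjusted p = 0.33). The mainstream value was lower than the sidestream value by 0.65 ± 0.14 in obese animals, 1.57-fold, with an adjusted p of 0.00048. A second probe set of Gsto1 was higher by 0.79 in DIO-SS and by 0.81 in RW-SS, with adjusted p values of 0.032 and 0.047 over all probe sets.

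Set directly against each other, mainstream smoke gave lower signals than sidestream smoke for 17 of the 67 genes and higher for 2 in obese animals, where 16.8% of all genes were called, 8.83% higher and 8.0% lower. In regular weight animals 7 were lower and 3 higher, where 9.77% of all genes were called, 6.05% higher and 3.72% lower. The share of the 67 that were lower was 25.4% in obese and 10.4% in regular weight animals. Of the 18 Gst genes 9 were lower in DIO-MS and 4 in RW-MS, with none higher. In each diet 17 of these 18 had a negative difference. Their medians were -0.26 in obese and -0.19 in regular weight animals, against -0.04 and -0.02 over all genes. Of the 16 aldehyde dehydrogenases 6 were lower and 1 higher in DIO-MS (37.5% and 6.25%), and 1 lower and 1 higher in RW-MS. The DIO-MS falls of Aldh1a1, Aldh1a7, Aldh2 and Aldh6a1 held under the 8 alternatives and with any single array left out. Those of Aldh4a1 and Aldh8a1 did not. Akr1b8 and Aldh18a1 were higher with mainstream smoke in both diets. All 8 mainstream animals lay beyond all 8 sidestream animals in 8 genes of each diet, where this held for 5.79% of all genes in obese and 3.97% in regular weight animals.

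Without the 5 arrays the mainstream counts were 5 higher and 13 lower in DIO-MS and 6 higher and 12 lower in RW-MS. Of all 12393 genes 18.0% were then called in DIO-MS, 1191 higher and 1038 lower. In RW-MS 24.3% were called, 1267 higher and 1748 lower, so that falls outnumbered rises over all genes as well. The sidestream counts were then 4 higher and 2 lower in DIO-SS and 3 higher and 4 lower in RW-SS. Of all genes 9.23% were called in DIO-SS (577 higher, 567 lower) and 4.69% in RW-SS (211 higher, 370 lower). Between the smokes 12 genes were lower and 1 higher in obese animals, and 17 lower and 3 higher in regular weight animals. Of all genes 12.0% were called in obese (883 higher, 599 lower) and 17.1% in regular weight animals (1086 higher, 1030 lower).

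In filtered air, obese animals had lower Gstt2, Gstt3 and Sult1c2 than regular weight animals. Gstt2, a theta-class transferase, had signals of 8.35, 8.72 and 8.95 in DIO-SC and 8.81, 8.94 and 9.11 in RW-SC, which overlapped. It was lower by 0.26 ± 0.07, with an adjusted p of 0.014, and the call ended without DIO-SC-3 (adjusted p = 0.053). Gstt3 was lower by 0.22 ± 0.07 (adjusted p = 0.038; 0.16 without the 5 arrays). Sult1c2 was lower by 0.22 ± 0.07 (adjusted p = 0.04; 0.061 without the 5 arrays). The share of the 67 called, 4.48%, lay below that of all genes, and 0 of the 67 had all obese animals beyond all regular weight animals, where 1.14% of all genes did. Between the same groups all 6 B cell markers and 5 of 9 alveolar type 2 markers were lower in obese animals, while 6 of 8 smooth muscle, 4 of 8 skeletal muscle and 2 of 8 adipocyte markers were higher. DIO-SC-3 was the highest DIO-SC array in skeletal muscle markers and DIO-SC-7 in adipocyte markers, and these counts include both arrays. The part of the marker shifts in the 3 genes was not tested.

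Whether the response to smoke differed between the diets was tested as the obese difference minus the regular weight difference. None of the 67 genes passed limma's test for mainstream smoke, where 0.888% of all genes were called, and none for sidestream smoke, where 0.654% were called. At an unadjusted p below 0.05 there were 2 and 4, and the lowest adjusted p values were 0.272 and 0.285. The median SE of these differences was 0.13, larger than the 0.09 of the differences against air. For Akr1b8 the difference between the diets under mainstream smoke was 0.04, with a 95% interval from -0.24 to 0.32. For Gsta2 it was -0.38, with an interval from -0.87 to 0.11, and for Gstm7 0.25, from -0.08 to 0.57. For Gstt3 under sidestream smoke it was 0.24, from 0.05 to 0.44, with an adjusted p of 0.28.

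The diets share no animals, so their responses can be set side by side. Under mainstream smoke 46 of the 67 genes (68.7%) had the same sign in both diets, against 68.6% of all genes. The genes called in both diets numbered 11, which is 64.7% of the 17 called in obese and 84.6% of the 13 called in regular weight animals, where over all genes the shares were 37.4% and 54.7%. All 11 moved the same way in both diets. Under sidestream smoke 44 of 67 (65.7%) had the same sign, against 60.8% of all genes, and 2 genes, Akr1c14 and Gstt3, were called in both diets.

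**Figure D4:**
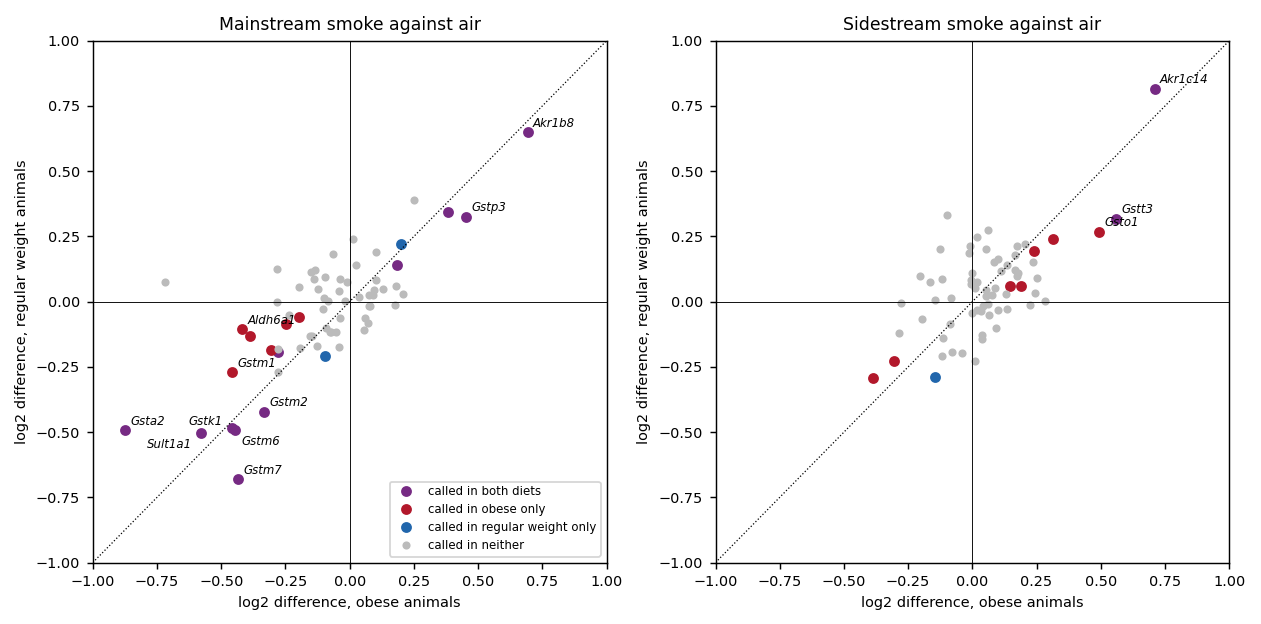
Log2 difference of the 67 genes from filtered air in obese animals (horizontal axis) and in regular weight animals (vertical axis), for mainstream smoke on the left and sidestream smoke on the right, with the dotted line where both are equal. Akr1b8 lies at upper right and Gsta2, Gstm7, Gstk1 and Sult1a1 at lower left under mainstream smoke, and Akr1c14 at upper right under sidestream smoke.

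The brightest members of the remaining families were called in no comparison. Gstz1, which isomerizes maleylacetoacetate in tyrosine breakdown, had signals of 8.39, 8.87 and 8.97 in DIO-MS, 8.78, 9.01 and 9.76 in DIO-SC, 8.60, 8.81 and 9.05 in RW-MS and 8.94, 9.15 and 9.32 in RW-SC. It differed by -0.28 ± 0.12 in DIO-MS (adjusted p = 0.091) and by -0.27 ± 0.12 in RW-MS (adjusted p = 0.13), and without the 5 arrays it was called in RW-MS, with an adjusted p of 0.001. Mgst1, a membrane-bound transferase with peroxidase activity, lay between 13.12 and 13.57 in DIO-MS, 13.37 and 13.58 in DIO-SS, 12.95 and 13.38 in DIO-SC, 13.16 and 13.43 in RW-MS, 13.33 and 13.65 in RW-SS and 13.17 and 13.40 in RW-SC. Its groups overlapped, and its difference of 0.16 ± 0.06 in DIO-SS had an adjusted p of 0.075.

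The UDP-glucuronosyltransferases with a symbol of their own were 6 genes of the Ugt2 family, all dim. Ugt2b34, the brightest, lay between 4.06 and 4.96 over all arrays and its groups overlapped. The only call among the 6 was Ugt2b37, higher in RW-MS than in RW-SS by 0.24 ± 0.06 (adjusted p = 0.0046), between signals of 3.02 and 3.62. The Ugt1a enzymes share exons, and the 3 probe sets of that locus carried several symbols and were set apart. Their means were 10.35, 11.28 and 9.90, and none was called against air in either diet. Their differences ran from -0.02 to 0.05 in DIO-MS, from 0.09 to 0.14 in DIO-SS, from 0.02 to 0.13 in RW-MS and from 0.12 to 0.22 in RW-SS, with 0.097 the lowest adjusted p over all probe sets. Over the 67 genes, 24 had a mean signal below 6.33, the first quartile of all genes, where a small change is hard to see.

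The motif search covered 250-base windows of 59 of the 67 genes, 71 windows in all, among 32851 windows of mouse genes in RefSeq. TGACNNNGC, the core of the antioxidant response element bound by NRF2, was in 10.2% of all windows and in 7 of the 71 (9.86%). GCGTG, the core of the xenobiotic response element bound by the aryl hydrocarbon receptor, was in 28.2% of all windows and in 16 of the 71 (22.5%). TGANTCA, the AP-1 site, was in 6.75% and in 9 of the 71 (12.7%), and it can overlap the first motif. TTATGTAA, the D-box bound by Dbp, Tef and Hlf, was in 0.819% and in 2 of the 71 (2.82%). These are matches of letters on either strand, and they show neither binding nor its lack.

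Genes that make, use or break down glutathione, listed together with thioredoxin genes, moved with mainstream smoke in both directions. The counts do not separate these roles. Of 23 measured, 5 rose and 5 fell in DIO-MS (21.7% each way, against 11.7% higher and 9.76% lower over all genes), and 3 rose and 4 fell in RW-MS (13.0% and 17.4%, against 6.61% and 8.07%). Slc7a11, the cystine importer, had signals of 4.73, 4.98 and 6.35 in DIO-MS and 4.21, 4.44 and 4.74 in DIO-SC, and of 4.64, 5.07 and 5.60 in RW-MS and 4.04, 4.48 and 4.83 in RW-SC. It rose by 0.83 ± 0.17 in DIO-MS (adjusted p = 0.00027) and by 0.62 ± 0.17 in RW-MS (adjusted p = 0.01). Gclc, the catalytic chain of glutamate-cysteine ligase, the first step of glutathione synthesis, had signals of 11.11, 11.33 and 11.78 in DIO-MS and 10.22, 10.97 and 11.32 in DIO-SC, and of 11.18, 11.50 and 11.91 in RW-MS and 10.62, 10.91 and 11.25 in RW-SC. Gclc rose by 0.51 ± 0.13 in DIO-MS (adjusted p = 0.0022) and by 0.56 ± 0.13 in RW-MS (adjusted p = 0.0016). Gpx2, a glutathione peroxidase of epithelium, fell by 0.60 ± 0.14 in DIO-MS (adjusted p = 0.0014). Outside this list, Gusb, which removes glucuronic acid from conjugates and sits in lysosomes, rose by 0.76 ± 0.06 in DIO-MS (adjusted p = 1.5e-14) and by 0.53 ± 0.06 in RW-MS (adjusted p = 1.5e-09).

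Other partners are given by counts, to be read against the 11.7% of all genes that rose and 9.76% that fell in DIO-MS, and the 6.61% and 8.07% in RW-MS. Of 14 genes of NADPH supply and quinone reduction, 5 fell in DIO-MS, while 1 rose and 3 fell in RW-MS. The falls are 35.7% and 21.4% of this list. None of the 14 was called under sidestream smoke against air, where 6.85% of all genes were called in DIO-SS and 2.17% in RW-SS. Of 18 transcription factors and cofactors, 1 rose and 5 fell in DIO-MS and 5 fell in RW-MS, so that 27.8% fell in each, and Nfe2l2 itself differed by 0.00 ± 0.06 and 0.05 ± 0.06. The clock-driven factor Dbp had log2 differences of -0.46 ± 0.16 in DIO-MS, -1.32 ± 0.16 in DIO-SS, -1.41 ± 0.16 in RW-MS and -2.62 ± 0.16 in RW-SS. Its relatives also fell in the groups named here, Hlf with -0.60 ± 0.11 in DIO-MS and -0.65 ± 0.11 in RW-SS, and Tef with -0.62 ± 0.08 in RW-MS and -0.70 ± 0.08 in RW-SS. Values of Hlf and Tef in the other smoke groups are not given. Ppara, a receptor for fatty acids, fell by 0.74 ± 0.24 in DIO-MS (adjusted p = 0.023). Among 20 transporters and suppliers of cofactors, 2 rose and 2 fell in DIO-MS, shares of 10.0% near those of all genes, and 2 rose and 3 fell in RW-MS (10.0% and 15.0%). Of 12 genes that handle retinoids, partners of Aldh1a1, 1 rose and 4 fell in DIO-MS and 5 fell in RW-MS (33.3% and 41.7% lower). Lrat, which stores retinol as its ester, fell by 0.91 ± 0.25 in DIO-MS (adjusted p = 0.0054) and by 0.86 ± 0.25 in RW-MS (adjusted p = 0.013). Of 7 genes driven by the aryl hydrocarbon receptor, 2 rose and 1 fell in DIO-MS, and 1 rose and 1 fell in RW-MS, too few to set against the shares of all genes. Cyp1a1, the receptor's best-known target, rose by 3.62 ± 0.21 in DIO-MS and fell by 0.69 ± 0.21 in RW-MS, and none of the 67 rose in one diet and fell in the other. Cyp1a1 was also lower by 4.84 ± 0.21 in DIO-SC than in RW-SC, a gap many times that of any of the 67. Cyp1b1, another target, rose by 1.03 ± 0.14 in DIO-MS, 0.63 ± 0.14 in DIO-SS, 0.58 ± 0.14 in RW-MS and 0.59 ± 0.14 in RW-SS.

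Counts of cell type markers are to be read against the shares of all genes. In DIO-MS 11.7% of all genes rose and 9.76% fell, and in RW-MS 6.61% and 8.07%. Counts of 1 or 2 markers in a list are too few to set against these shares. The mean log2 signal of 10 macrophage markers lay between 10.18 and 10.47 in DIO-MS, against 9.04 and 9.21 in DIO-SC, and between 10.24 and 11.01 in RW-MS, against 9.03 and 9.18 in RW-SC. Of the 10, 7 rose and 1 fell in each diet. The mean of 10 club cell markers lay between 11.20 and 11.99 in DIO-MS, against 11.30 and 12.14 in DIO-SC, and between 11.45 and 11.99 in RW-MS, against 11.26 and 12.04 in RW-SC. Of these, 2 fell in DIO-MS and 3 in RW-MS, while Scgb1a1, the defining secretory protein of club cells, differed by -0.03 and -0.01. Of 6 ciliated cell markers 2 fell in each diet, and of 8 smooth muscle markers 8 fell in DIO-MS and none was called in RW-MS. Of 10 fibroblast and matrix markers 5 rose in each diet, and 1 fell in DIO-MS. Of 9 alveolar type 2 markers 5 rose in DIO-MS, while 1 rose and 2 fell in RW-MS. Of 7 alveolar type 1 markers 1 rose and 3 fell in DIO-MS, and 4 fell in RW-MS. Endothelial markers fell in 2 of 11 cases in DIO-MS and 4 in RW-MS, and neutrophil markers rose in 3 of 9 and 2 of 9. Of 6 B cell markers 1 rose in DIO-MS and 4 fell in RW-MS. In DIO-MS 4 of 8 skeletal muscle, 2 of 8 adipocyte, 2 of 7 squamous epithelium, 1 of 7 cardiac muscle and 1 of 6 hepatocyte markers also fell, with none of these called in RW-MS, and no T cell or thymocyte marker was called in either diet. Under sidestream smoke 5 of the 6 B cell markers fell in RW-SS and 2 rose in DIO-SS. No other cell type list had more than 2 called markers in either diet. Of all genes 2.17% were called in RW-SS and 6.85% in DIO-SS. The marker counts include the arrays that stood apart and were not made without them. DIO-SC-3 was the highest DIO-SC array in skeletal muscle and squamous epithelium markers, and DIO-SC-7 in adipocyte markers. The part of the marker shifts in the changes of the enzymes was not tested. The mean of 6 hepatocyte markers lay between 5.71 and 7.13 in all arrays.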

How the data were processed

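Lung RNA of 48 mice was hybridized to 1 array each. The deposited table holds log2 values from RMA, per the submitters' processing notes. RMA subtracts background, normalizes arrays by quantiles and summarizes each probe set. The authors' version of it, and whether the arrays went through it together, is not given in the sources used here. A range of 2.50 to 15.3 and the number of arrays limit the precision, and no raw scans were used.

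It held 22690 probe sets. Of these 64 were controls, 691 carried several symbols, 1606 had no entry in the array annotation, and 20380 with 1 symbol gave 12393 genes. Groups follow the sample titles. In RW-MS and RW-SS the source names of animals 7 and 8 read 5 and 6 again. They were taken as separate animals, since 0 array columns were identical.

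The fit used limma 3.58.1 (lmFit and default eBayes) in R 4.3.3, with 1 mean for each group over the 48 arrays, and the data.table package (1.17.8). There were 9 comparisons, each two-sided with Benjamini-Hochberg adjustment over the 12393 genes. Probe sets were also fitted on their own, with adjustment over all of them. Tables and figures used Python 3.11.15, numpy 2.4.6, pandas 2.3.3 and matplotlib 3.10.9. The fit was tested on simulated data first. The rule for genes named with values took those called with at least 1.5-fold, those called between the diets, and the brightest of each family, 19 in all, and partner genes outside the 67 called with at least 1.5-fold. Others, such as Aldh18a1, Gstp3, Gstt3, Gstm2 and Gstt2 and the partners Nfe2l2 and Scgb1a1, were added after their values were seen. The genes and lists were chosen with earlier results of these data known. The animals are separate and no batch is named, so equal replicate numbers were not taken as pairs in the main fit. Samples with equal numbers had correlated deviations (over 0.1) in 42 of 120 pairs. Their median correlation was 0.036, against -0.008 for other pairs, whose share over 0.1 was not counted. A replicate block was therefore kept among the alternatives. The 8 alternatives were leaving out 5 arrays, centring arrays, averaging probe sets, leaving out cross-matching probe sets or dim genes, a replicate block, only the compared groups in the fit, and eBayes with trend and robust. Each of the 48 arrays was also left out, a step added after the data were seen. Upstream sequences are RefSeq's, of GRCm38.p6.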

Additional observations from a re-analysis of the deposited data

Results flagged for a closer look

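Dixon's test was run in 114 groups of 8 values, those of the 19 named genes in 6 groups. In 6 of them the highest or lowest animal lay far from the rest. Chance gives about 1 in 20, so that the number of flags is about what chance gives. The animal DIO-MS-2 had an Akr1e1 signal of 8.892. Gstm7 in DIO-SS-6 was 6.205. Both are highs in genes that stayed within a narrow range in the other 7 animals of the group. DIO-SC-7 had the lowest Gstm1 signal of its group, 12.0, and the highest Gstz1 signal, 9.756. RW-SS-6 had the highest Gstz1 signal of its group, 10.2, and the highest Mgst1 signal, 13.65. The arrays DIO-SC-7 and RW-SS-6 thus hold 4 of the 6, and they were also the arrays with the highest adipocyte marker signals, 10.96 and 11.17. DIO-SC-7 was also highest in T cell markers, at 10.97, and thymocyte markers, at 10.51, and RW-SS-6 in cardiac muscle markers, at 11.88. The part of these other tissues in the values was not tested.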

How the results depend on the processing

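There were 74 calls among the 67 genes over the 9 comparisons. Of these 42 held under every alternative in which the gene was tested. With any 1 of the 48 arrays left out 49 held, and 37 held under both, and 0 turned direction. Gstm7, Sult1c2 and Ugt2b37 were tested in 7 of the 8 alternatives, since they are among the dim genes that 1 of them left out. Fitting only the compared groups lost 19 calls, leaving out the 5 arrays 14 and the replicate block 6. For obese against regular weight animals in air the count of 3 became 1 with arrays centred and 0 with only these groups in the fit. With only the compared groups in the fit, DIO-MS against DIO-SC gave 8 in place of 17, DIO-SS against DIO-SC 3 in place of 9, and RW-MS against RW-SS 16 in place of 10. Without the 5 arrays RW-SS against RW-SC gave 7 in place of 3, and RW-MS against RW-SS 20 in place of 10, where over all genes they gave 581 in place of 269 and 2116 in place of 1211. With arrays centred the DIO-SS genes split into 9 higher and 1 lower, against 7 and 2.

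With the replicate block the counts were 2 for diet in air, 17 for DIO-MS, 7 for DIO-SS, 10 for RW-MS, 3 for RW-SS, 19 and 10 between the smokes in obese and regular weight animals, and 0 for both differences between the diets.

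With 1 array left out, the count ranged from 1 to 4 for diet in air (lowest without RW-SC-1, RW-SC-3, RW-SC-5 or DIO-SC-3), 16 to 21 for DIO-MS, 5 to 11 for DIO-SS (lowest without DIO-SS-3 or DIO-SS-6), 10 to 15 for RW-MS, 3 to 5 for RW-SS (highest without RW-SC-7), 14 to 22 between the smokes in obese animals, 7 to 15 in regular weight animals (lowest without RW-SS-6, highest without DIO-SC-7), and 0 to 0 for the differences between the diets. The cause of these shifts was not tested. Dim signal limits the 24 genes under the first quartile of signal, the values carry no probe-level error, and 8 animals a group leave differences between the diets with wide intervals.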
